A study of Bos taurus with 11 samples.

Results

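Serine dehydratase (SDS) breaks serine down, and a set of other enzymes builds serine, glycine, proline, asparagine and glutamine. These enzymes were followed in the endometrium, the inner lining of the uterus, of dairy cows soon after calving. Of 10 enzymes named for the set, 9 had a probe set whose platform annotation gave exactly 1 matching symbol, out of 9155 genes represented on the array in that way. They were SDS and 8 synthesis enzymes, PHGDH, PSAT1, PSPH, SHMT1, SHMT2, ALDH18A1, PYCR1 and GLUL. The asparagine synthetase ASNS was not matched and was not analysed here. The 9 genes had 13 probe sets, and each gene was represented by the probe set with the highest mean over all arrays. The set was chosen by the measured difference between the groups, SDS being higher and some synthesis enzymes lower in severe cows. That difference is therefore given as a description. Its counts in limma are printed beside those of all genes and support nothing, and the tests that did not use it were made on the variation between cows of the same group.

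Endometrium was taken at slaughter, 14 ± 0.4 days after calving, from 11 Holstein-Friesian dairy cows that had calved 4.7 times on average, and each cow's RNA was measured on 1 Affymetrix bovine array. The regimes began on day 2 after calving and were allocated at random. The mild negative energy balance group (n = 5) had free access to grass silage with 8 kg of concentrate daily and 1 milking per day. The severe negative energy balance group (n = 6) was limited to 25 kg of silage, with 4 kg of concentrate daily and 3 milkings per day, so that feed and milking frequency differed together and cannot be told apart. No genetic alteration was part of the design. Values are log2 signals after robust multi-array averaging (RMA), so a difference of 1 is a doubling of signal. The median of each array was 6.20, and signals under 5.52 are called dim here, because 40% of probe sets have a lower mean. Differences are compressed in that range.

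Cells make serine from the glycolytic intermediate 3-phosphoglycerate in a short pathway of PHGDH, PSAT1 and PSPH, and serine hydroxymethyltransferases then split serine into glycine and a carbon unit for folate. Proline is made from glutamate through ALDH18A1 and the PYCR reductases, and glutamine from glutamate and ammonia by glutamine synthetase, GLUL. SDS runs the opposite way: it turns serine into pyruvate and ammonia, and it is best known from liver, where it feeds amino acid carbon into glucose synthesis. Several of the synthesis genes are known targets of ATF4, the transcription factor of the amino acid response.

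Of 9 epithelial markers 1, the keratin KRT8, was dim on average over all cows, and of 8 stromal fibroblast markers 0 were. The epithelial adhesion protein EPCAM averaged 10.33 in all cows and the stromal proteoglycan DCN 13.53. Of 5 smooth muscle markers 0 were dim, their averages running from 11.24 for CNN1 to 13.43 for ACTA2. The mean deviation of these 5 markers from their means over all cows ran from -0.58 to 0.64 in mild and from -0.89 to 0.43 in severe cows. The mean 3' minus 5' difference of 6 bovine control transcripts, a sign of RNA quality, ran from 0.452 to 0.645 in mild cows and from 0.416 to 0.819 in severe cows. In Dixon's test at the 95% level no cow stood apart from its group in any of the 26 sets of values given by the 13 probe sets and both groups.

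SDS, the breakdown enzyme, had the largest difference of the 9 genes. In the order mild 1 to mild 5, kept for all genes below, its signal was 6.60, 5.75, 6.12, 6.56 and 5.15, the last of these dim. From severe 1 to severe 6 it was 7.11, 7.62, 9.03, 10.29, 9.77 and 9.68. Each severe cow lay above each mild cow, but the severe cows were themselves spread over 3.18 log2 units, with severe 1 and severe 2 close to the mild range and severe 3 to severe 6 well above it. Severe cows averaged 8.92 ± 1.28 (SD, n = 6) and mild cows 6.04 ± 0.60 (SD, n = 5), and the log2 difference of 2.88 ± 0.55 (SE) was above that of 99.9% of all probe sets. The other SDS probe set gave a log2 difference of 2.60 ± 0.64 (SE). There severe 1 lay at 6.42, just under the highest mild cow at 6.45, so the groups overlapped in that probe set, and mild 2 and mild 5 were dim at 4.96 and 4.85. Both SDS probe sets followed each other closely between cows of the same group (r = 0.985 over 11 cows).

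The means of the serine synthesis enzymes differed in both directions. PSAT1, the phosphoserine aminotransferase of the middle step, had a log2 difference of -1.41 ± 0.46 (SE), or a 2.65-fold lower mean in severe cows. Its signal in the mild cows was 10.77, 11.14, 10.62, 9.91 and 9.49. In the severe cows it was 10.22, 7.97, 9.98, 8.00, 8.48 and 9.21. Of the 6 severe cows 4 lay below the lowest mild cow, while severe 1 and severe 3 lay inside the mild range. The other 2 PSAT1 probe sets differed by -1.39 ± 0.38 and -1.56 ± 0.37 (SE), in the same cows, with correlations between the 3 probe sets within groups from 0.938 to 0.979.

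PHGDH, the enzyme that commits 3-phosphoglycerate to serine, differed by -0.71 ± 0.35 (SE), with broad overlap. The mild cows were at 8.55, 9.58, 8.70, 8.46 and 7.77 and the severe cows at 8.15, 7.41, 8.49, 6.82, 8.49 and 8.03. All 6 severe cows lay under the mild mean of 8.61 but only severe 2 and severe 4 under the lowest mild cow. The difference was -0.47 without mild 2, the highest cow.

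PSPH, the phosphatase of the last step, differed in the opposite direction, by 0.40 ± 0.21 (SE). Mild cows ran from 5.71 through a median of 6.13 to 6.23, and severe cows from 5.88 through 6.36 to 7.19. Severe 4, severe 5 and severe 6 lay above every mild cow and the other 3 severe cows among them. The difference was 0.25 without severe 5 and 0.16 without both mild 2 and severe 5. The other PSPH probe set, close to the dim limit, differed by 0.10 ± 0.14 (SE), and the probe sets were less alike than those of SDS or PSAT1 (r = 0.657 within groups).

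**Figure D1:**
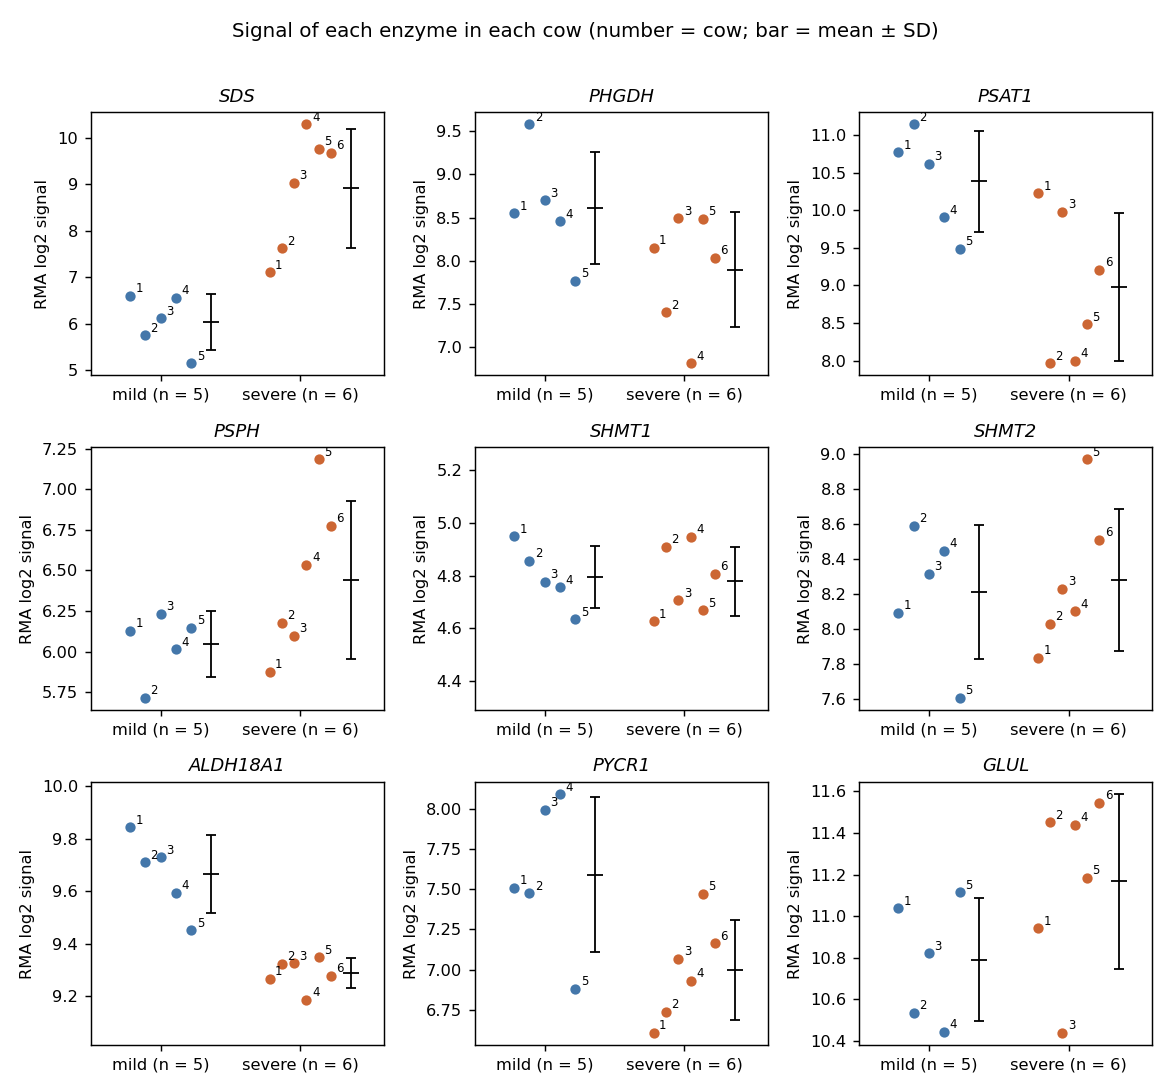
Log2 signal (vertical axis, separate scale for each gene) of the 9 enzymes in 5 mild and 6 severe cows, each point 1 cow with its number, bars giving mean ± SD. The groups are apart for SDS, with severe cows from 7.11 to 10.29 against 5.15 to 6.60, and for ALDH18A1, and they overlap for the other 7 genes.

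Neither serine hydroxymethyltransferase showed a direction. SHMT2, the mitochondrial form, averaged 8.28 ± 0.41 in severe (SD, n = 6) against 8.21 ± 0.38 in mild cows (SD, n = 5), and the sign of its small difference turned with the cows included, from -0.08 without mild 5 to 0.16 without mild 2. SHMT1, the cytosolic form, was dim in all 11 cows, between 4.63 and 4.95, so its difference of -0.02 ± 0.08 (SE) is not read.

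Both measured enzymes of proline synthesis were lower on average in severe cows. ALDH18A1, which reduces glutamate to the proline precursor, was at 9.84, 9.71, 9.73, 9.60 and 9.45 in the mild cows. The severe cows were at 9.27, 9.32, 9.33, 9.19, 9.35 and 9.28. The groups did not overlap, although the gap between the lowest mild and the highest severe cow was narrow and the log2 difference only -0.38 ± 0.08 (SE), or 1.30-fold. The severe cows lay within 0.161 log2 units of each other, against 0.392 in the mild cows. ALDH18A1 varied less between cows of the same group than most transcripts: its within-group SD of 0.108 was above that of only 13.9% of probe sets, whereas the SD of SDS, 1.03, was above that of 99.2%.

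PYCR1, the mitochondrial reductase that completes proline, differed by -0.59 ± 0.22 (SE). The mild cows were at 7.51, 7.48, 7.99, 8.09 and 6.88 and the severe cows at 6.61, 6.74, 7.07, 6.93, 7.47 and 7.16. The overlap of the groups came from mild 5, which was lower than 4 of the severe cows.

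GLUL, glutamine synthetase, differed by 0.38 ± 0.20 (SE), the mean of severe cows being 11.17 ± 0.42 (SD, n = 6) and that of mild cows 10.79 ± 0.30 (SD, n = 5). Severe 2, severe 4, severe 5 and severe 6 lay above the highest mild cow at 11.11, while severe 3, at 10.44, lay level with mild 4 at the low end of all cows.

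**Figure D2:**
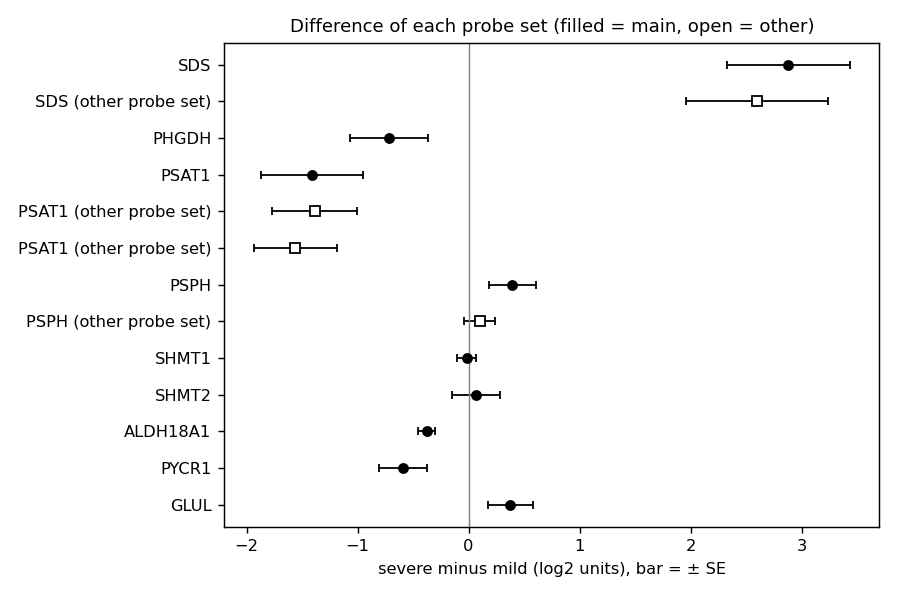
Difference between severe and mild cows in log2 units (horizontal axis) with its SE for each of the 13 probe sets, filled circles for the main and open squares for other probe sets of a gene. The 2 SDS probe sets lie at 2.88 and 2.60 and the 3 PSAT1 probe sets between -1.56 and -1.39, with the other synthesis enzymes between -0.71 and 0.40.

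Counted together, 5 of the 8 synthesis enzymes had a lower mean in severe cows and 3 a higher one. Their median log2 difference was -0.20, and that of all 9155 genes was -0.004, of which 51.1% were lower. One of the 5 is SHMT1, whose difference is not read. When dim probe sets, and with them SHMT1, were left out, 4 of 7 synthesis enzymes were lower and the median was -0.38. In limma's test across all 24016 probe sets 0 of the 9 enzymes passed an adjusted p of 0.05, as did 0% of all probe sets. At an unadjusted p under 0.05 there were 3 synthesis enzymes lower (PSAT1, ALDH18A1 and PYCR1), where 7.46% of all genes were, and SDS higher, where 8.45% of all genes were. Groups without overlap occurred in 0.754% of genes in the direction of SDS and in 0.437% in the direction of ALDH18A1. These shares are background only, since the same contrast chose the enzymes.

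For each cow SDS was also set against the synthesis enzymes, as the deviation in SDS minus the mean deviation over the 8 synthesis enzymes. Deviations were taken from each gene's mean over all cows. This value is not the balance of a single pathway, since ALDH18A1, PYCR1 and GLUL serve proline and glutamine synthesis. It is a description only, because the same contrast chose the set and so set the groups apart. The value ran from -2.24 to -1.15 in mild cows and from -0.33 to 3.04 in severe cows. Most of this spread came from SDS: the mean deviation of the synthesis enzymes alone ran from -0.22 to 0.34 in mild and from -0.36 to 0.12 in severe cows, and the groups overlapped. The order of the cows by SDS was not their order by PSAT1. Severe 2 had one of the lowest SDS signals of its group and the lowest PSAT1, whereas severe 4 had the highest SDS and nearly the lowest PSAT1.

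**Figure D3:**
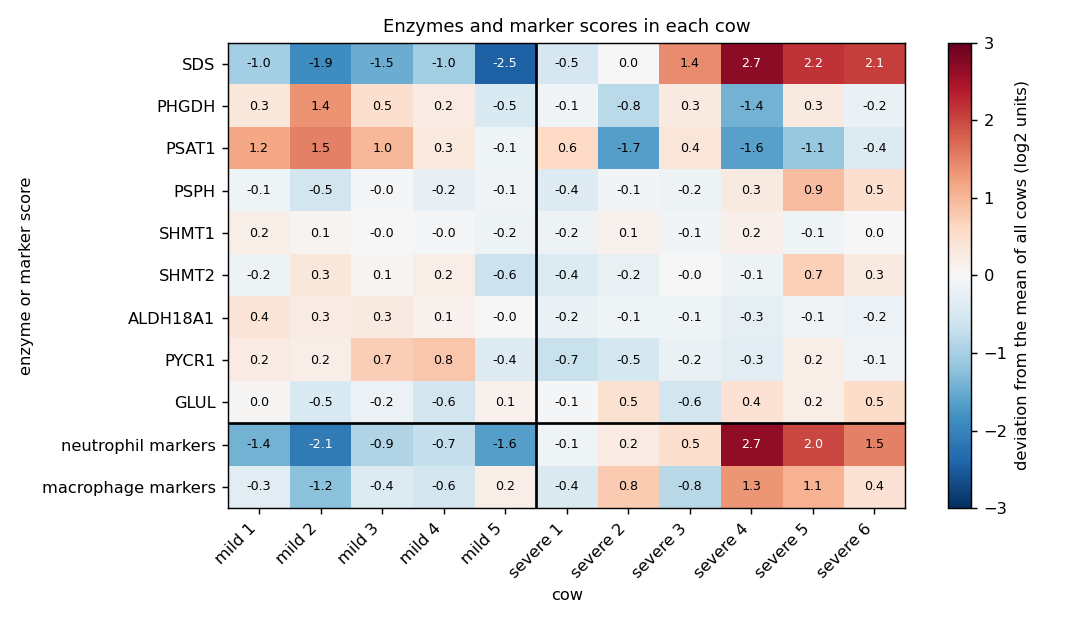
Deviation of each cow (columns) from the mean of all cows, in log2 units, for the 9 enzymes and for the mean of neutrophil and of macrophage markers (rows), red being higher and blue lower. SDS and the neutrophil markers are highest in severe 4, severe 5 and severe 6, and PSAT1 is lowest in severe 2 and severe 4.

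How the enzymes varied between cows of the same group was not used to choose them and was tested. Group means were removed from each gene, and Pearson's r and Spearman's rho over the 11 cows were compared with all 86400 rearrangements of cows inside the groups. Of the 36 pairs 3 had an exact two-sided p under 0.05 by r and 4 by rho, and 0 passed Benjamini-Hochberg adjustment by either (smallest adjusted p = 0.111 for r).

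The pair with the smallest p was SHMT2 and PYCR1, both mitochondrial enzymes (r = 0.82, exact permutation p = 0.00308, adjusted p = 0.111; rho = 0.78). Without mild 5 and severe 5, r was 0.53. The cows left out here and below are the 2 farthest from the median of the first gene's values after removal of group means. PSAT1 and PHGDH, successive enzymes of serine synthesis, had r = 0.74 (exact permutation p = 0.0152, adjusted p = 0.182) and rho = 0.75, and r was 0.55 without severe 2 and severe 4. Mild 2 was high and severe 4 low in both genes. SDS and PYCR1 had r = 0.65 (exact permutation p = 0.0133, adjusted p = 0.182) and rho = 0.67, or r = 0.55 without severe 1 and severe 2. That is a positive relation inside the groups, although the means of both genes differed in opposite directions between them. Over the 11 cows together SDS showed little relation to PHGDH (r = -0.04, rho = -0.13) or to ALDH18A1 (r = 0.14, rho = 0.24), and with PSAT1 it had r = -0.23 (rho = -0.16, exact permutation p = 0.544 for r). These values join opposite signs in the mild and severe groups. In mild and severe cows r was 0.23 and -0.15 with PHGDH, 0.68 and -0.27 with ALDH18A1, and 0.34 and -0.38 with PSAT1. The difference between groups was not tested.

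Markers of immune cells moved with the groups and are given beside the enzymes. In severe cows the means of all 6 neutrophil markers on the array were above those in mild cows, by a median of 2.85 log2 units, and their summed level, the log2 of the added signals, ran from 8.39 to 11.01 in mild and from 11.90 to 14.77 in severe cows. CXCR1, TREM1 and IL1R2 were dim in mild cows, with means of 4.70, 4.46 and 4.01. All 8 measured macrophage markers were higher, by a median of 0.90, with summed levels from 11.02 to 12.43 and from 11.48 to 13.72. B and plasma cell markers (6 of 6) and T and NK cell markers (11 of 11) were higher too, by medians of 1.93 and 0.85. Epithelial, fibroblast, endothelial and smooth muscle markers had medians of 0.08, 0.06, 0.07 and -0.28, and members of each list differed in both directions. Of 9 epithelial markers 5 were higher and 4 lower, of 8 fibroblast markers 4 and 4, of 5 endothelial markers 3 and 2, and of 5 smooth muscle markers 1 and 4. At an unadjusted p under 0.05 in limma 8.45% of all genes were higher and 7.46% lower. Of 6 neutrophil markers 6 were higher at that level, and of 8 macrophage markers 4. Of 6 B and plasma cell markers 6 were, and of 11 T and NK cell markers 8. In the epithelial, fibroblast, endothelial and smooth muscle lists calls were few and near the shares over all genes, so nothing is read from them. They were the claudin CLDN10 (-0.997 ± 0.416, SE), the stromal receptor PDGFRA (0.97 ± 0.27), the transcription factor HOXA10 (-0.71 ± 0.20) and the endothelial receptor KDR (-0.24 ± 0.09), which was dim. In bulk tissue more cells of a type and more RNA per cell cannot be told apart, and the part of these cells in the differences of SDS, PSAT1 and the other enzymes was not tested.

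Within the groups, 72 relations between the 9 enzymes and 8 marker scores (the mean deviation of a marker list) were computed in the same way. Of these 10 had an exact two-sided p under 0.05 by r and 13 by rho. After adjustment 0 passed, the smallest adjusted p being 0.0975. SDS followed the neutrophil score most closely (r = 0.87, exact permutation p = 0.00318, adjusted p = 0.0975; rho = 0.85). Without severe 1 and severe 2 that r was 0.76. Taken by group, r was 0.59 in mild and 0.93 in severe cows. CXCR1, TREM1 and IL1R2, which are part of that score, were dim on average in mild cows. With the fibroblast score SDS had r = 0.59 (exact permutation p = 0.0292, adjusted p = 0.285) and rho = 0.78, or r = 0.65 without severe 1 and severe 2. With the macrophage score its r was lower (r = 0.35, rho = 0.42, exact permutation p = 0.384 for r). PSAT1 ran against the macrophage score (r = -0.89, exact permutation p = 0.00183, adjusted p = 0.0975; rho = -0.71), and r was -0.86 without severe 2 and severe 4. PHGDH ran the same way with r = -0.71 (exact permutation p = 0.0232, adjusted p = 0.278) and rho = -0.67, or r = -0.50 without mild 5 and severe 4.

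**Figure D4:**
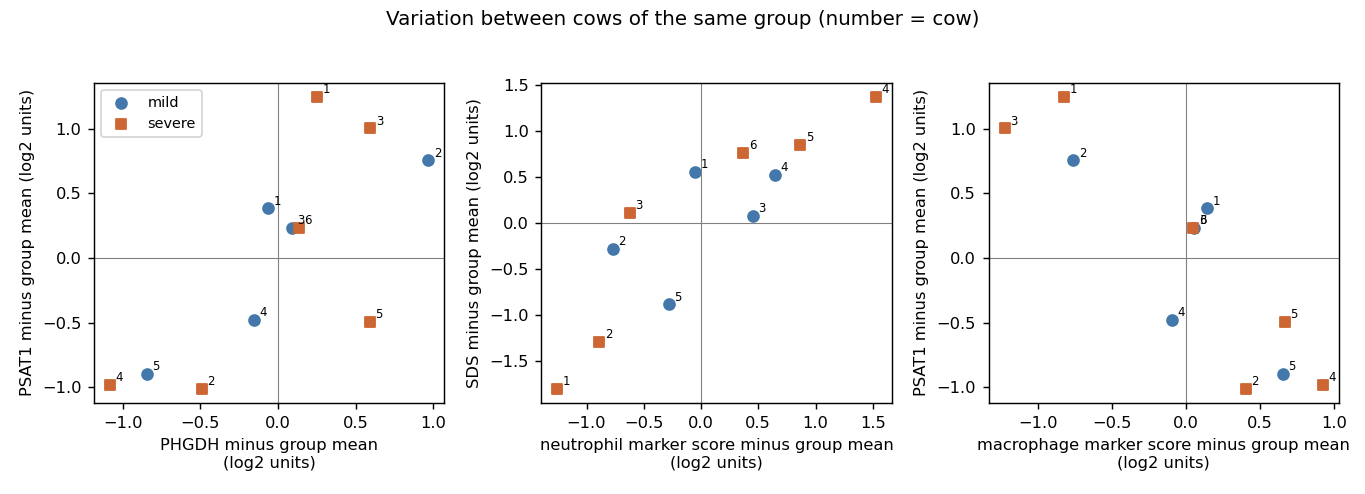
Each cow's value minus its group mean, in log2 units on both axes, for PSAT1 against PHGDH, SDS against the neutrophil marker score and PSAT1 against the macrophage marker score, circles for 5 mild and squares for 6 severe cows. The points rise from left to right in the left and middle plots (r = 0.74 and r = 0.87) and descend in the right one (r = -0.89).

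The genes most like SDS inside the groups were sought among 7127 genes outside the set whose mean over all cows was not dim, by r over the 11 cows after removal of group means. They were CXCR1, the interleukin 8 receptor of neutrophils (r = 0.93), the DNA exonuclease TREX1 (r = 0.91), the interferon-induced IFI35 (r = 0.91) and C29H11orf24 (r = 0.91). CXCR1 was dim in mild cows, at 4.70 against 7.37 in severe cows, so it passed this filter only through the severe cows. It also belongs to the neutrophil score, so its likeness to SDS is not independent of the relation of SDS to that score. Over the 5 closest genes, of which 4 are named here, r lay between 0.61 and 0.82 without severe 1 and severe 2, and rho over all cows between 0.85 and 0.93. For ALDH18A1 they were TCAP (r = 0.96), HNRNPR, an RNA-binding protein (r = 0.92), NSMCE3 (r = 0.91), UMPS, an enzyme of pyrimidine synthesis (r = 0.91), and SAFB2 (r = 0.90), with r between 0.71 and 0.92 without mild 1 and mild 5. By rank the likeness to ALDH18A1 was weaker for some of them, rho running from 0.53 for SAFB2 and 0.75 for UMPS to 0.89 for TCAP. As the highest of many values, these r are a description only.

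Lists of other genes of the surrounding pathways, written with earlier results of these data known, are given next. In each of them 0 genes passed limma's test across all probe sets, and counts at an unadjusted p under 0.05 are read against 8.45% of all genes higher and 7.46% lower. Of 13 measured enzymes of folate carbon transfer and glycine cleavage 0 were higher and 3 lower at that level, with a median difference of 0.01. They were GCSH, the carrier protein of glycine cleavage (-0.66 ± 0.17, SE), the thymidylate synthase TYMS (-0.46 ± 0.15) and MTHFD1, the cytosolic folate enzyme (-0.38 ± 0.17). Of 8 other enzymes in a list of serine breakdown and use 2 were lower at that level, GCAT, an enzyme of threonine breakdown (-0.29 ± 0.09) and CBS, which joins serine to homocysteine (-0.72 ± 0.30). SDSL, the gene related to SDS, averaged 3.73 over all cows, a dim signal, so it could not be compared with SDS.

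Among 11 other genes of proline and ornithine metabolism 2 were lower at an unadjusted p under 0.05, the collagen prolyl hydroxylase P4HA2 (-0.30 ± 0.11, SE) and PYCR3, a cytosolic relative of PYCR1 (-0.28 ± 0.13), and the median was -0.06. Of 13 genes of asparagine, aspartate, glutamine and glutamate metabolism 0 reached that level, with a median of -0.14. Of 10 genes that carry pyruvate and amino acid carbon towards glucose, 6 were dim on average, among them PCK1, the key enzyme of that route in liver, at 3.65. FBP2, a fructose bisphosphatase dim on average, was higher at an unadjusted p under 0.05 (0.63 ± 0.17, SE), and the pyruvate carrier subunit MPC2 and pyruvate carboxylase PC were lower (-0.18 ± 0.07 and -0.22 ± 0.10). Of 2 measured genes for the pyridoxal phosphate cofactor of SDS and PSAT1, the phosphatase PDXP differed by -0.19 and the kinase PDXK by 0.18.

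Genes of the amino acid response had higher means in severe cows more often than lower ones. Of the 15 measured genes 10 were higher in severe cows and 5 lower, with a median of 0.32, against a median of -0.004 over all genes. At an unadjusted p under 0.05 there were 6 higher and 1 lower. ATF4 averaged 11.08 ± 0.14 (SD, n = 6) against 10.76 ± 0.22 (SD, n = 5), and it differed by 0.32 ± 0.11 (SE), with an adjusted p of 0.310 in limma. ATF3, a stress-induced transcription factor, differed by 1.49 ± 0.30 (adjusted p = 0.248) and TRIB3, dim in the mean of both groups, by 0.35 ± 0.12 (adjusted p = 0.308). Of 16 cytosolic tRNA synthetases 12 were lower and 4 higher, with a median of -0.04 and 1, LARS1, at an unadjusted p under 0.05 (-0.21 ± 0.07). Of 9 transporters of neutral amino acids 0 reached that level, SLC38A2 and SLC1A4 differing by 0.23 and 0.59. The means of all 7 measured genes of cell division were lower in severe cows, where 51.1% of all genes were, by a median of 0.34 log2 units. Only 1 of them, CCNB1, cyclin B1, was at an unadjusted p under 0.05. It differed by -1.88 ± 0.63 (SE, adjusted p = 0.308 in limma), the lowest difference of all genes, and does not stand for the list.

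**Figure D5:**
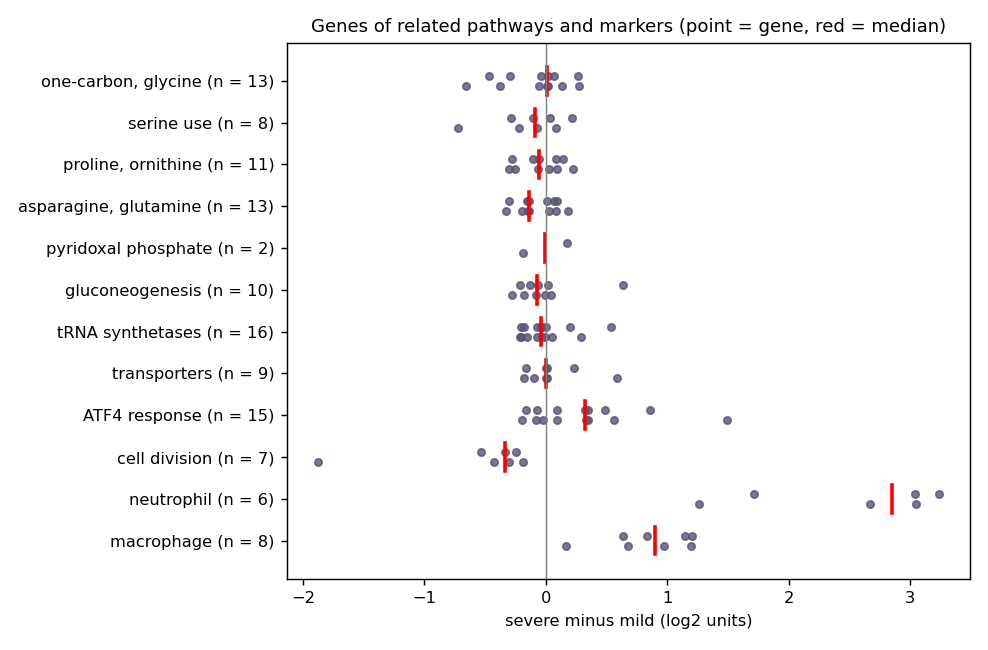
Difference between severe and mild cows in log2 units (horizontal axis) for each gene of related pathways, of cell division and of neutrophil and macrophage markers (rows), with the median of each list as a red bar. Medians of the metabolic lists lie between -0.14 and 0.01, that of the amino acid response at 0.32 and that of neutrophil markers at 2.85.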

How the data were processed

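Per the submitters' processing notes, the authors made the deposited log2 values with RMA, a method with background correction, quantile normalization between arrays and summary per probe set. Its version is not given in the sources used here. The log2 scale was read from the values (2.63 to 14.6). Quantile normalization hides a change common to all transcripts. An array has no read depth, and the number of arrays limits the precision.

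Of 24128 probe sets 112 controls were left out. Symbols came from the platform annotation (13292 probe sets with 1 symbol, 86 with several, 10638 not listed) and were set against RefSeq genes of ARS-UCD2.0 through Entrez numbers, which renamed 0. The groups were compared with limma's lmFit and eBayes (version 3.58.1, R 4.3.3), two-sided, with Benjamini-Hochberg adjustment over 24016 probe sets. Within-group correlations and figures used Python 3.11.15, numpy 2.4.6 and matplotlib 3.10.9. Both procedures were tested on simulated data. In the simulation for limma, 44% of log2 changes of 0.5 and 90% of those of 1 were called at an adjusted p under 0.05. The changes were placed in probe sets drawn at random, with noise independent between probe sets. The within-group SD of SDS was above that of 99.2% of probe sets and that of PSAT1 above 98.5%. The simulated shares therefore do not give the power for these enzymes. Of the 181 calls in that simulation 15 were false. Cow numbers only name the cows, and no batch is given in the sources used here.

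The enzymes, gene lists and tests were chosen with earlier results of these data known. In each pathway list up to 3 genes were named, those with the smallest unadjusted p, and for likeness the 5 genes with the highest r to SDS and to ALDH18A1. The last gene of the first of these lists is not reported here. SDSL, PCK1, KRT8, EPCAM, DCN, CNN1, TREM1 and IL1R2 were named outside this rule. The relations to marker scores were added after the values were seen. No sequences were used here.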

Additional observations from a re-analysis of the deposited data

How the results depend on the processing

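The SDS difference of 2.88 kept its sign in all 18 alternatives, from 2.61 without severe 4 to 3.24 without severe 1, and so did those of PSAT1 (-1.66 to -1.12), PHGDH (-0.93 to -0.47), PYCR1 (-0.77 to -0.47), ALDH18A1 (-0.43 to -0.33), GLUL (0.29 to 0.52) and PSPH (0.16 to 0.51). SHMT2 and SHMT1 kept theirs in 15 of 18 and 12 of 17. Some alternatives could not change a difference. Leaving out dim probe sets and the trend and robust settings of eBayes kept each difference as it was. So did averaging probe sets for genes with a single one. For SDS and ALDH18A1, whose groups did not overlap, leaving out cows could not turn the sign. The kept signs are a description, since the same contrast chose the enzymes. The median of the synthesis enzymes ran from -0.26 to -0.16 when 1 cow was left out and was -0.38 over the 7 enzymes left after the dim filter. The number of synthesis enzymes with a lower mean ran from 4 to 6. The count of all probe sets past an adjusted p of 0.05 ran from 0 to 16 when 1 cow was left out, 16 without severe 1 and 2 without severe 3, and was 0 in all other alternatives. The limma adjusted p of SDS ran from 0.0466 without severe 1 to 0.495 without severe 4, from which nothing is read, since the same contrast chose SDS. Of the pathway and marker genes 0 to 1 passed, the 1 being CXCR1 without severe 1. With Spearman's rho 0 pairs of enzymes passed adjustment, as with Pearson's r. The shift to a common median changed nothing, because the arrays already shared 1 median. No paired analysis was possible because the labels give no number that cows of both groups share. Dim signals limit what can be said of SHMT1, of SDSL and of the lower end of SDS.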

Other observations

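PSPH and GLUL, 2 of the 3 synthesis enzymes with higher means in severe cows, were set against the marker scores within the groups. PSPH was positively related to the score of B and plasma cell markers, with r = 0.85 over the 11 cows (exact permutation p = 0.00406, adjusted p = 0.0975 over 72 relations) and rho = 0.82, or r = 0.70 without severe 1 and severe 5. With the neutrophil score PSPH had r = 0.75 (exact permutation p = 0.0317, adjusted p = 0.285) and rho = 0.60, and with the macrophage score r = 0.69 (exact permutation p = 0.0571, adjusted p = 0.294) and rho = 0.67. Without severe 1 and severe 5 these r were 0.68 and 0.60. GLUL was positively related to the macrophage score, with r = 0.81 (exact permutation p = 0.00569, adjusted p = 0.103) and rho = 0.64, and negatively to the smooth muscle score, with r = -0.76 (exact permutation p = 0.0110, adjusted p = 0.159) and rho = -0.85. Without mild 4 and severe 3, these r were 0.74 and -0.70. None of these relations passed adjustment. The relation to the macrophage score was positive for PSPH and GLUL and negative for PSAT1 and PHGDH, and the difference between these relations was not tested. ALDH18A1 and PYCR1, also lower on average in severe cows, had r = -0.30 and r = -0.01 with that score. PYCR1 was positively related to the B and plasma cell score (r = 0.62, exact permutation p = 0.0367, adjusted p = 0.294; rho = 0.78). With the neutrophil score PYCR1 had r = 0.58 (exact permutation p = 0.0427, adjusted p = 0.294) and rho = 0.75. To the epithelial score it was negatively related (r = -0.55, exact permutation p = 0.0507, adjusted p = 0.294; rho = -0.71). Without mild 4 and mild 5, these r were 0.82, 0.64 and -0.68. The relations of PYCR1 did not pass adjustment either.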
